A study of Mus musculus with 10 samples.

Results

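The germline small RNA pathway genes *Ddx4*, *Mael*, *Piwil1*, *Piwil2*, *Piwil4*, *Tdrd1*, *Tdrd9*, *Asz1*, *Gtsf1* and *Dicer1* were followed in the H3K4me3 profiles of *Setd1b* cKO and WT GV oocytes. Every 5 kb window that the deposited table assigns to a gene of this set was taken, which gave 110 windows over 10 genes out of 544879 windows in all. GV oocytes are oocytes still held in meiotic prophase with an intact nucleus, the germinal vesicle, and were isolated from the ovaries of 21-day-old C57BL6 mice (C57BL/6OlaHsd in the study's methods) in pools of about 200. *Setd1b* cKO oocytes (n = 3; replicates 1, 3 and 4) were from *Setd1b* floxed/floxed females positive for Gdf9-Cre, a recombinase switched on in the oocyte from early follicle growth, and WT oocytes (n = 3; replicates 1, 2 and 4) were from floxed/floxed females negative for Cre. The study's methods also count heterozygous females with Cre as WT, and the floxed allele is carried in every group. The assay was ULI-nChIP-seq (precipitation of nuclease-cut, uncrosslinked chromatin from few cells), and 2 unprecipitated input libraries were made per genotype. Values are normalized RPKM, a score scaled by the authors so that the libraries share a common background and a common high level, so it measures where H3K4me3 lies and not how much there is in total. Values of single libraries are given in the order of replicates 1, 3 and 4 for cKO and 1, 2 and 4 for WT, in normalized RPKM, and SE is the standard error of a difference.

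PIWI proteins are Argonaute proteins that bind piRNAs, small RNAs that silence transposons in germ cells. The piRNAs are made and amplified in the nuage, a perinuclear granule built from Tudor domain proteins, the helicase DDX4 and partners such as MAEL and ASZ1. In mice this pathway is essential in the male germ line, whereas mouse oocytes rely more on endogenous siRNAs cut by DICER1. H3K4me3 is the mark of active and CpG-rich promoters, and in fully grown mouse oocytes it also spreads over broad domains away from promoters. SETD1B is an H3K4 methyltransferase of the COMPASS family.

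The transcription start site (TSS) of a gene was that of its principal transcript in GENCODE M21, on GRCm38, and the window that holds it is called the TSS window. To show what kind of start these windows hold, the 200 bases upstream of the start are given for *Tdrd1*, which had the highest TSS window of the set in WT, for *Dicer1*, which has the most CpGs, and for *Mael* and *Tdrd9*, all of which have the same start in RefSeq (GRCm38.p6) and GENCODE. CpG dinucleotides, the sites of DNA methylation, are in capitals. *Tdrd1* is on the forward strand (chr19:56826009-56826208), *Dicer1* on the reverse strand (chr12:104751953-104752152), *Mael* on the reverse strand (chr1:166238745-166238944) and *Tdrd9* on the forward strand (chr12:111971359-111971558).
Tdrd1: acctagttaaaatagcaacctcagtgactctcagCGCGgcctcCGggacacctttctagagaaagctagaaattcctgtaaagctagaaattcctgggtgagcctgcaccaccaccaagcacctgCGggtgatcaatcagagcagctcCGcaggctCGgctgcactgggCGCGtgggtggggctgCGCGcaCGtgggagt
Dicer1: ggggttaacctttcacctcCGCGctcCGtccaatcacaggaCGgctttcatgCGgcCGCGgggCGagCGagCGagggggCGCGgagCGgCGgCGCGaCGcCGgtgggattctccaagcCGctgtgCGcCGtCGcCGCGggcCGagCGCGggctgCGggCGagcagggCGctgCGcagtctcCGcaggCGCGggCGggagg
Mael: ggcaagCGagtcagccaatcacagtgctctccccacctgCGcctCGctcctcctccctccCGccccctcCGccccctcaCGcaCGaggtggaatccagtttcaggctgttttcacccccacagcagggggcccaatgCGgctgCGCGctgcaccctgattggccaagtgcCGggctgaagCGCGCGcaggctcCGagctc
Tdrd9: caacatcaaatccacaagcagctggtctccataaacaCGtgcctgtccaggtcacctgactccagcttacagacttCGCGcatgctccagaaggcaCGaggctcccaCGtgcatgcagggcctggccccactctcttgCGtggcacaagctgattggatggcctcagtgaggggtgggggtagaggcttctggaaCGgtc

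Of the 10 genes, 9 matched a RefSeq promoter (250 bases before and 50 after the start). Those promoters held from 10 CpGs in *Tdrd9* to 49 CpGs in *Dicer1*, against a median of 7 CpGs over 32851 promoters of the same length. Germline genes are kept silent in somatic cells by a Polycomb complex that holds MGA and MAX, which bind the E-box, and E2F6. The E-box CACGTG, which reads the same on either strand, was found in 5 of the 9 promoters (*Ddx4*, *Mael*, *Piwil1*, *Tdrd1* and *Tdrd9*) and in 7.15% of all promoters. The E2F motif TCCCGC, or GCGGGA on the other strand, was found in 3 of the 9 (*Ddx4*, *Mael* and *Dicer1*) and in 19.98% of all promoters. The 2 motifs were searched separately, and a match is a description of the sequence and not a bound site.

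H3K4me3 libraries held between 10856015 and 32775874 reads in windows, and cKO replicates 3 and 4 were less enriched over background than the others, with a value at 0 reads of −1.02 and −0.70 normalized RPKM against −0.0359 to 0.810 in the other 4 libraries. In the window inside *Setd1b* next to its TSS window (chr5:123145001-123150000), H3K4me3 was 2.17, 3.21 and 3.25 in the cKO and 8.34, 9.69 and 7.37 in the WT libraries. This is a chromatin mark and not a measure of the deleted exons. The 11 genes of a list of oocyte markers (among them *Zp1*, *Zp2*, *Zp3* and *Gdf9*) had WT means of 4.69 to 7.79 normalized RPKM at their TSS windows, against a median of 3.71 over the TSS windows of protein-coding genes, and the summed level of the list was 58.1 to 63.1 normalized RPKM in cKO and 65.4 to 70.6 normalized RPKM in WT. The cKO mean was higher at 3 of them, among which *Gdf9*, whose window also holds the start of *Uqcrq*, had 10.7 in cKO and 7.46 in WT. All cKO libraries were below all WT libraries at 6 (54.5%, against 8.82% of protein-coding TSS windows), with none called by limma. Of the 11, 7 (63.6%) had an unadjusted p under 0.05 in either direction, against 24.3% of protein-coding TSS windows. The summed level of 10 granulosa cell markers was 45.3 to 48.5 normalized RPKM in cKO and 32.8 to 36.4 normalized RPKM in WT. No marker of either list was at 0 reads in any library. All 10 granulosa markers had a higher mean in cKO (against 54.6% of protein-coding TSS windows), at 6 all cKO libraries were above all WT libraries (against 15.4%), and *Foxl2* alone was called, where 1.23% of protein-coding TSS windows were gains (a difference of 2.85 normalized RPKM, limma adjusted p = 0.0415 after Benjamini-Hochberg adjustment). With edgeR (TMM or RLE) *Foxl2* was not called and *Hsd17b1* was, and without cKO replicate 3 *Inha* was called in its place. H3K4me3 also lies at silent CpG-rich promoters, and the part of these marker differences in the results below was not tested.

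Differences between genotypes were tested with limma on the values as deposited, with p-values adjusted over all 544879 windows, and a window with an adjusted p under 0.05 is called a gain or a loss window. Within the set, 1 window was a loss window (*Dicer1*) and 1 was a gain window (*Tdrd9*), of 110. Over all windows the background was 0.563% gain and 0.454% loss, and over the 225692 windows that carry a gene name it was 0.891% gain and 0.365% loss, so the number called was near the background. Neither of these 2 windows holds an annotated TSS of its gene. An unadjusted p under 0.05 was found in 14 of the 110 windows (12.7%), against 15.6% of windows with a gene name.

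*Dicer1* encodes the RNase III enzyme that cuts double-stranded RNA into siRNAs and hairpins into miRNAs. Mouse oocytes also make a shorter DICER1, from a promoter inside intron 6 that came from an MT-C retrotransposon, and this form is the one known to process long double-stranded RNA efficiently. The loss window (chr12:104725001-104730000) covers 78.2% of intron 6 of the principal *Dicer1* transcript, with exons 5 and 6, all of intron 5 and part of intron 4, and is centred 24.5 kb downstream of the start. No start of that short form is listed in the annotation used here. H3K4me3 in this window was 4.17, 4.40 and 4.27 in the cKO libraries, from 61, 41 and 103 reads. It was 7.30, 7.84 and 7.37 in the WT libraries, from 124, 81 and 236 reads. The 3 cKO libraries lay below the 3 WT libraries, with no overlap. In pools of oocytes, fewer oocytes with the mark and less of it per oocyte cannot be told apart. The mean was 4.28 ± 0.115 in cKO and 7.51 ± 0.296 in WT (normalized RPKM, SD, n = 3 each), a difference of −3.23 (SE 0.336, limma adjusted p = 0.0130). In cKO replicate 3 a single read is worth 0.132 normalized RPKM. The SD in cKO is smaller than that read, and so below counting error, and does not show how well replicates repeat. By the size of its difference the window ranked 149 among the 2473 loss windows of the genome, and its WT level was above that of 99.8% of all windows and of 97.9% of the 20441 windows with the TSS of a protein-coding gene.

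The direction at *Dicer1* was kept in every alternative fit, and the call was lost in those that called few or no windows anywhere, and in edgeR. With edgeR on the whole reads (TMM) the log2 fold change was −1.08 and the window was not called (adjusted p = 0.371). That edgeR fit called 6145 losses over all windows, more than the 2473 of the main limma fit. On the log2(value + 1) scale the limma adjusted p was 0.154, and with quantile normalization it was 0.0530. The log2 scale called 0 windows in the genome and quantile normalization called 1, though 73232 and 90771 had an unadjusted p under 0.05. When 1 library at a time was left out, the difference stayed between −3.33 and −3.06 with limma adjusted p from 0.0163 to 0.0872. It was called without cKO replicate 1 or 3 and not without cKO replicate 4 (adjusted p = 0.0668), WT replicate 1 (0.0584), WT replicate 2 (0.0872) or WT replicate 4 (0.0597), and those 4 fits together called 1 window in the genome.

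The TSS window of *Dicer1* (chr12:104750001-104755000), which holds 197 CpGs, had a difference of the opposite sign. H3K4me3 there was 7.33, 5.45 and 5.42 in the cKO and 3.84, 5.22 and 3.96 in the WT libraries. Every cKO library was above every WT library, with WT replicate 2 close below cKO replicates 3 and 4. The difference was 1.73 normalized RPKM (SE 0.576, limma adjusted p = 0.186) and was not called, and without cKO replicate 1, the highest library, it was 1.10. Chosen after its values were seen, the level of the intron 6 window less that of the TSS window was −3.16, −1.06 and −1.16 in the cKO and 3.45, 2.63 and 3.42 in the WT libraries. H3K4me3 was thus higher inside the gene than at its start in all 3 WT libraries and lower in all 3 cKO libraries. The next window upstream of the loss window, from 104730001, holds the start of a retained-intron *Dicer1* transcript and had 4.33, 2.95 and 4.60 in the cKO and 3.84, 3.37 and 3.03 in the WT libraries. The genotypes overlapped there (difference 0.55, limma adjusted p = 0.557). The next window downstream, from 104720001, holds the remaining 21.8% of intron 6 and the start of a non-coding *Dicer1* transcript, and had 1.73, 2.02 and 1.57 in the cKO and 2.07, 2.79 and 2.37 in the WT libraries. In that window and in the window from 104685001, named after its values were seen, the 3 cKO libraries all lay below the 3 WT libraries, with neither of them called (differences −0.63 and −0.78, limma adjusted p = 0.449 and 0.323). The windows of *Dicer1* other than the loss window, its upstream neighbour and the TSS window lay between 0.88 and 2.41 normalized RPKM in the mean of either genotype.

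**Figure D1:**
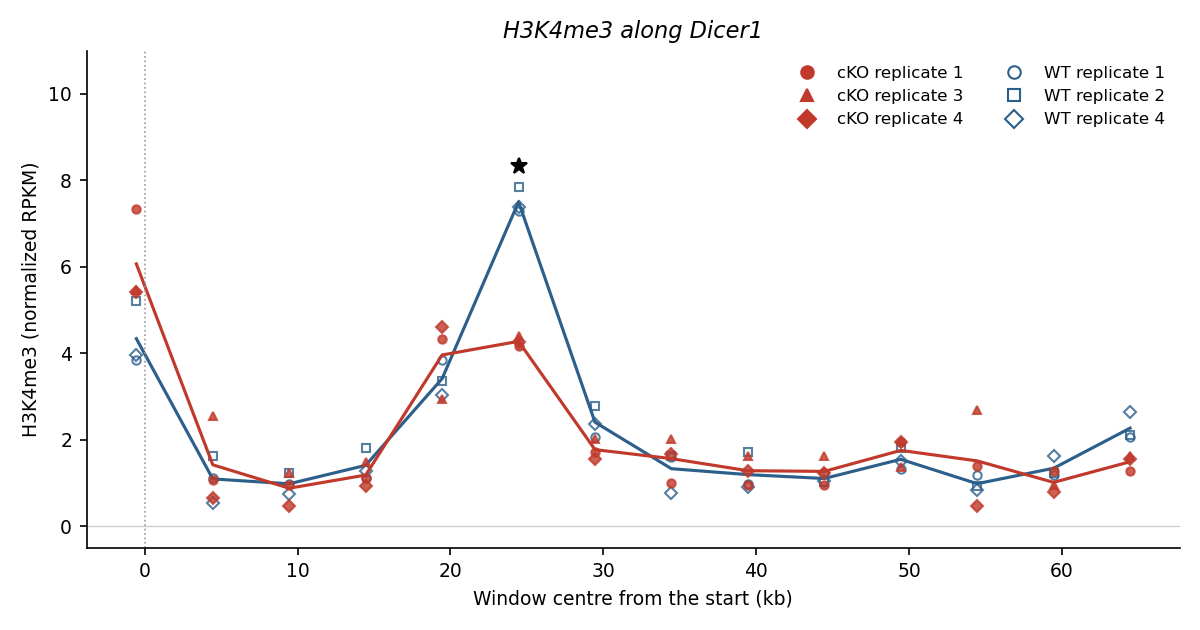
H3K4me3 in normalized RPKM (y axis) in the 14 windows of *Dicer1* against the distance of the window centre from the start in kb (x axis). Points are single libraries, lines are genotype means, the dotted line is the start and the star marks the loss window, where WT reached 7.51 and cKO 4.28, while at the start cKO was at 6.07 and WT at 4.34.

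*Tdrd9* encodes an RNA helicase with a Tudor domain that works with PIWIL4 in the nuage. Its gain window (chr12:112050001-112055000) is centred 80.9 kb downstream of the start and holds exon 33 of 36 with parts of introns 32 and 33 of the principal transcript, and no transcript of the gene starts in it. H3K4me3 was 3.28, 2.81 and 2.96 in the cKO libraries, from 45, 29 and 76 reads. In the WT libraries it was 0.91, 1.33 and 0.90, from 2, 14 and 20 reads. The WT libraries were at the level of the rest of the gene body, below all cKO libraries. The difference was 1.97 normalized RPKM (SE 0.339, limma adjusted p = 0.0345), and in whole reads the log2 fold change was 2.10 (adjusted p = 1.23e-05 from edgeR with TMM). It was not called on the log2(value + 1) scale (adjusted p = 0.103), with quantile normalization (0.0848), or without any single library other than cKO replicate 1, with limma adjusted p from 0.0542 to 0.147 in those 5 fits and a difference between 1.84 and 2.11 over all 6. These settings called 1 gain window in the genome in all, apart from the fit without cKO replicate 3, which called 1275.

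The neighbouring *Tdrd9* window, from 112045001, held 2.12, 3.21 and 2.68 in the cKO and 1.65, 0.45 and 1.02 in the WT libraries. All cKO libraries were again above all WT libraries, with a difference of 1.63 that was not called with limma (adjusted p = 0.105) and was called with edgeR (TMM, log2 fold change 1.44, adjusted p = 0.0108, background 1.57% gain and 0.545% loss over windows with a gene name); this window was named after its values were seen. The window on the other side, from 112055001, is fully masked as repeats and held at most 2 reads in any library, so its values only show the value at 0 reads. At the TSS window of *Tdrd9*, H3K4me3 was 5.61, 4.53 and 5.33 in the cKO and 5.31, 7.07 and 5.49 in the WT libraries. The genotypes overlapped and the difference of −0.80 was not called (limma adjusted p = 0.491), and without WT replicate 2, the highest library, it was −0.24.

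**Figure D2:**
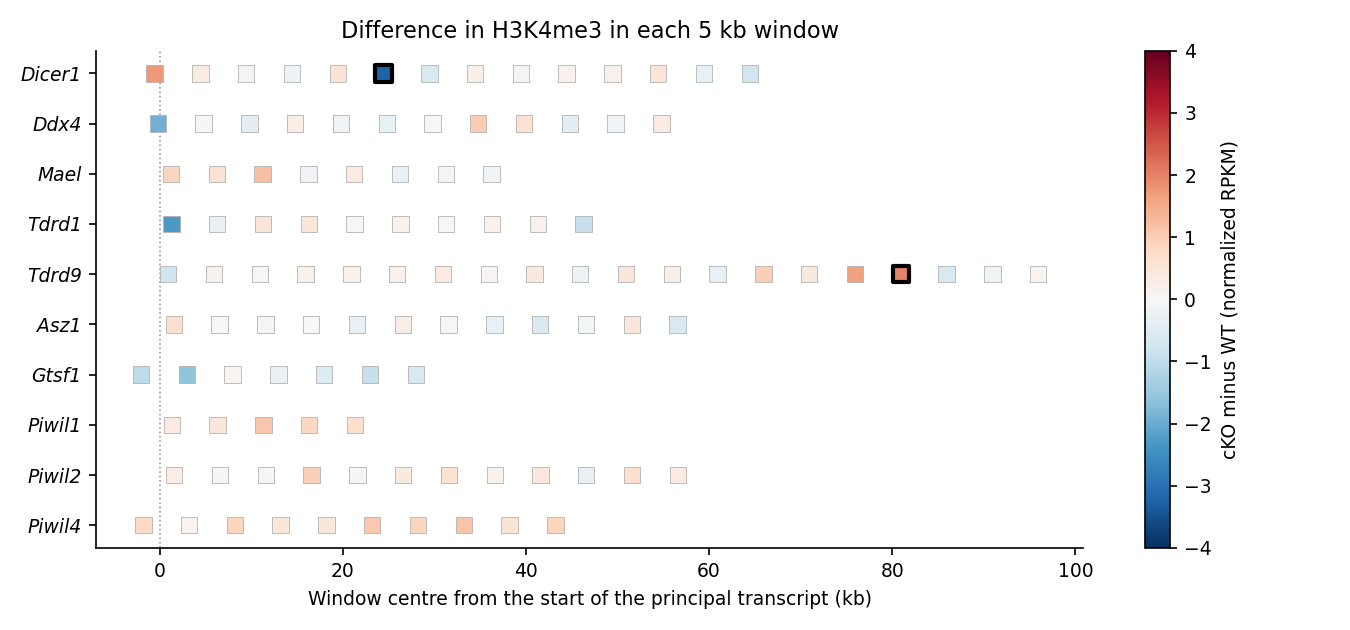
Difference in H3K4me3, cKO minus WT in normalized RPKM (colour), in each of the 110 windows, with 1 row per gene and the distance of the window centre from the start in kb on the x axis. Black frames mark the loss window of *Dicer1* (−3.23) and the gain window of *Tdrd9* (1.97), and every window of *Piwil1* and *Piwil4* was higher in the cKO mean.

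At the TSS windows, none of the 10 genes gained or lost H3K4me3 by limma at the adjusted threshold, where the background over the 20441 TSS windows of protein-coding genes was 1.23% gain and 0.734% loss. Of the 10, 3 had an unadjusted p under 0.05, against 24.3% of those TSS windows, and edgeR on whole reads called none either (TMM, background 0.728% gain and 0.628% loss). In 6 of 10 the cKO mean was higher, against 54.6% of all protein-coding TSS windows, and the median difference was 0.32 normalized RPKM against 0.10. All cKO libraries were above all WT libraries at 1 TSS window and below at 2, against 15.4% and 8.82% of protein-coding TSS windows.

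Among the genes of the nuage, *Tdrd1*, which encodes a Tudor protein that binds PIWI proteins at their methylated arginines, had the widest gap at its start. Its TSS window (chr19:56825001-56830000) had 5.50, 6.38 and 6.68 in the cKO and 9.55, 8.23 and 7.64 in the WT libraries. All cKO libraries were below all WT libraries. The mean was 6.18 ± 0.613 in cKO and 8.47 ± 0.974 in WT (normalized RPKM, SD, n = 3 each), which was above 99.6% of protein-coding TSS windows. The difference of −2.29 (SE 0.523) missed the threshold (limma adjusted p = 0.0713). It passed with an intensity trend in limma's variance (adjusted p = 0.0156), a setting that called 2.03% of protein-coding TSS windows as losses, and did not pass with edgeR on whole reads (TMM, log2 fold change −0.81, adjusted p = 0.601). In the next window, from 56830001, where a further *Tdrd1* transcript starts, the genotypes overlapped, with 2.45, 3.87 and 1.66 in the cKO and 3.48, 2.30 and 2.97 in the WT libraries (difference −0.25, limma adjusted p = 0.836). The last window named *Tdrd1*, from 56870001, holds the start of the neighbouring gene *Vwa2*, so its H3K4me3 cannot be assigned to *Tdrd1*.

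*Ddx4*, the Vasa helicase that marks germ cells, had 5.44, 2.95 and 3.50 at its TSS window (chr13:112650001-112655000) in the cKO and 6.72, 4.93 and 6.02 in the WT libraries. The genotypes overlapped through cKO replicate 1, which lay above WT replicate 2, and the difference of −1.93 (SE 0.658) was not called (limma adjusted p = 0.197). Without cKO replicate 1 it was −2.67 and was called (limma adjusted p = 0.0362), in a fit where 2.19% of protein-coding TSS windows were losses.

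*Gtsf1* encodes a small zinc finger protein that assists PIWI proteins in cleavage and silencing. At its TSS window (chr15:103430001-103435000), H3K4me3 was 5.55, 4.00 and 5.62 in the cKO and 6.51, 6.09 and 5.70 in the WT libraries. The next window, from 103425001, in which 3 further *Gtsf1* transcripts start, had 2.62, 2.15 and 1.42 in the cKO and 4.21, 3.47 and 3.39 in the WT libraries. The cKO libraries were below the WT libraries in both windows, narrowly in the TSS window. The differences were −1.04 (limma adjusted p = 0.348) and −1.62 (SE 0.417, limma adjusted p = 0.0967), and the second was called without cKO replicate 1 (−1.90, limma adjusted p = 0.0460) but in no other fit that left out 1 library. Without cKO replicate 3, the lowest library, the difference at the TSS window was −0.51.

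*Mael* encodes an HMG-box protein of the nuage, and *Asz1* an ankyrin repeat protein of the mitochondrial outer membrane beside the nuage. *Mael* had 3.72, 4.27 and 4.56 at its TSS window in the cKO and 3.32, 3.86 and 2.73 in the WT libraries. *Asz1* had 4.22, 4.40 and 3.01 in the cKO and 2.90, 3.27 and 3.57 in the WT libraries. The genotypes overlapped at both genes, with differences of 0.88 (limma adjusted p = 0.348) and 0.63 (limma adjusted p = 0.491), the latter between 0.37 without cKO replicate 3 and 1.06 without cKO replicate 4. The largest difference along *Mael* was at the window from 166225001, with 4.06, 4.13 and 3.78 in the cKO and 3.11, 1.72 and 3.54 in the WT libraries, where all cKO libraries were above all WT libraries without a call (difference 1.20, limma adjusted p = 0.263, and 0.67 without WT replicate 2, the lowest library). That along *Asz1* was at the window from 18050001, at the far end of the gene, with a difference of −0.64 (limma adjusted p = 0.437).

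In WT, the PIWI genes had lower H3K4me3 at their principal starts than *Tdrd1* and *Tdrd9*. *Piwil1* had 1.17, 1.23 and 2.39 in the cKO and 1.33, 1.03 and 1.38 in the WT libraries. *Piwil2* had 3.17, 3.47 and 3.21 in the cKO and 3.48, 2.79 and 2.73 in the WT libraries, and *Piwil4* had 2.06, 1.76 and 3.40 in the cKO and 1.91, 1.52 and 1.41 in the WT libraries. All 3 genes overlapped between genotypes, and cKO replicate 4 stood above the other libraries at *Piwil1* and *Piwil4*. The *Piwil1* window is shared with the start of *4930553I04Rik*, and the *Piwil2* window with that of *Gm24890*. The differences were 0.35, 0.29 and 0.79 normalized RPKM (limma adjusted p = 0.673, 0.693 and 0.469). Without cKO replicate 4 that at *Piwil4* was 0.30, and that at *Piwil2* lay between 0.15 without WT replicate 4 and 0.53 without WT replicate 1. In WT means at the principal starts, *Piwil1* (1.25) and *Piwil4* (1.61) were lowest of the 10 genes, with ranges that lay side by side (1.03 to 1.38 and 1.41 to 1.91). Above these in WT, with no overlap, came *Piwil2* (3.00), *Asz1* (3.25), *Mael* (3.30) and *Dicer1* (4.34), then *Ddx4* (5.89), *Tdrd9* (5.95) and *Gtsf1* (6.10), and neighbours among these 7 overlapped. *Tdrd1* (8.47) lay above all of them in every WT library. When the 5′ end of the whole gene was taken as the start, chosen after seeing the data, the *Piwil1* window was one that carries no gene name, and its difference was −2.25 (limma adjusted p = 0.0780), the opposite direction. The place of *Piwil1* in the ranking above holds for its principal start only.

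**Figure D3:**
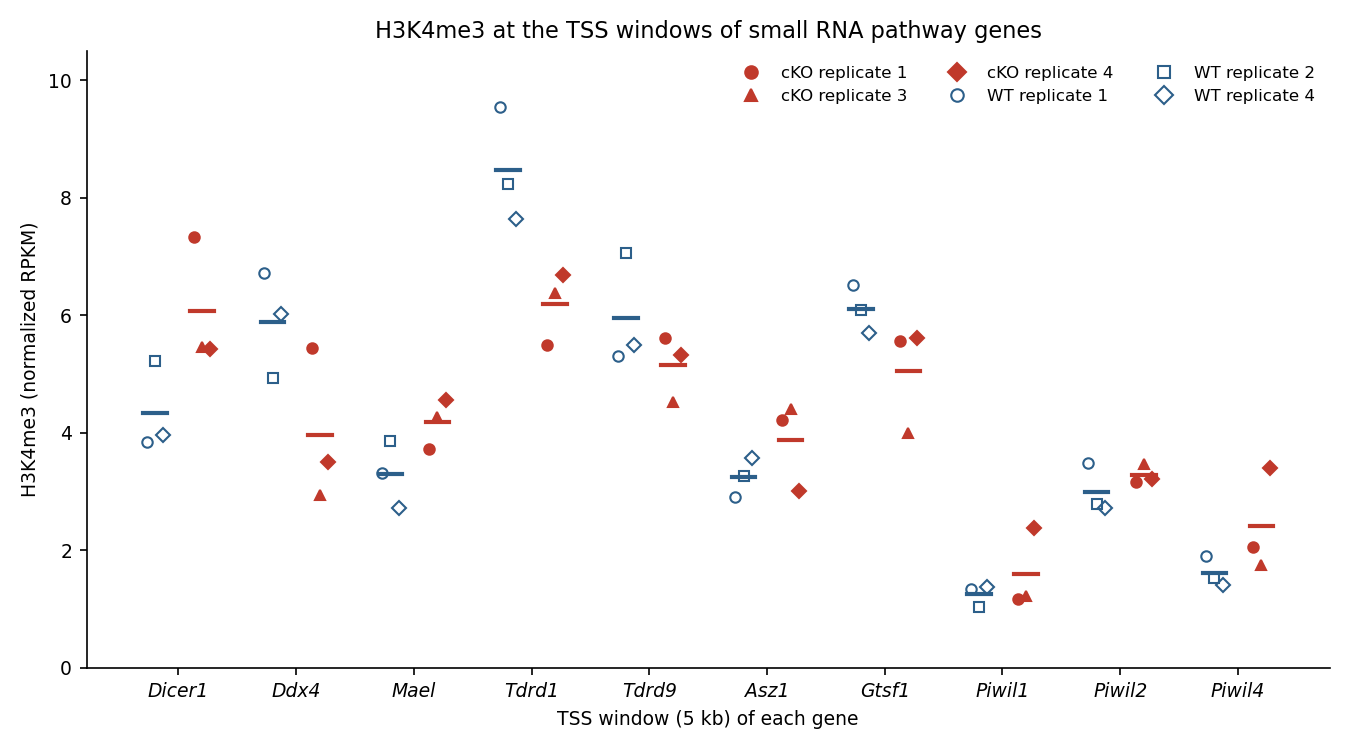
H3K4me3 in normalized RPKM (y axis) at the TSS window of each of the 10 genes (x axis). Points are single libraries and bars are means of 3 libraries, open for WT and filled for cKO, and only *Tdrd1* and *Gtsf1* (cKO below) and *Dicer1* (cKO above) did not overlap.

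The 4 genes with the highest WT level at the start (*Tdrd1*, *Gtsf1*, *Tdrd9* and *Ddx4*, all at 5 normalized RPKM or more) had the lower mean in cKO, and the other 6 had the higher mean in cKO. The limit of 5 was set after these values were seen. Over all protein-coding TSS windows the cKO was higher on average in 36.5% of the 5349 windows with a WT mean of at least 5 and in 61.1% of the 15092 windows below it. The WT mean enters both the split and the difference, so this is a description and not a test.

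Averaged over all windows of a gene, H3K4me3 did not overlap between the genotypes at 5 of the 10 genes, with cKO above WT in 4 and below in 1. Of the 10336 gene names with at least 5 windows, the fewest of any gene of the set, 29.5% had all cKO libraries above and 7.65% all cKO libraries below WT, and of all 24678 gene names 21.9% and 8.34%. For *Piwil4* the mean was 2.65, 2.81 and 3.33 in the cKO and 2.02, 2.10 and 2.48 in the WT libraries. For *Piwil2* it was 1.39, 1.57 and 1.42 in the cKO and 1.25, 1.16 and 1.08 in the WT libraries. In both PIWI genes all cKO libraries lay above all WT libraries. *Mael* (2.25 ± 0.107 against 1.94 ± 0.139 normalized RPKM, SD, n = 3 each) and *Tdrd9* (1.44 ± 0.0657 against 1.19 ± 0.150) were likewise higher in all cKO libraries. *Gtsf1* was lower, with means of 2.10, 1.21 and 1.77 in the cKO and 2.62, 2.27 and 2.34 in the WT libraries. In 2 of the *Gtsf1* windows the mean input was under 1 on its deposited scale, against a median of 2.07 over all windows, and over the other 5 windows, a choice made after seeing the data, the means were 2.47, 1.70 and 2.62 in the cKO and 3.26, 2.98 and 3.06 in the WT libraries. In these 5 genes the exact permutation test, two-sided, gave p = 0.1, the lowest value open to groups of 3 and 3, so that this design cannot reach 0.05. *Piwil1*, with a mean of 1.79 ± 0.504 in cKO and 1.11 ± 0.159 normalized RPKM in WT, overlapped through cKO replicate 1, and *Ddx4*, *Tdrd1*, *Asz1* and *Dicer1* overlapped with differences between −0.21 and −0.07 normalized RPKM (exact permutation p between 0.5 and 0.7, and 0.2 for *Piwil1*). The annotated *Piwil1* gene spans 12 windows, 7 of them without a gene name, and over all 12 its difference was 0.0995 (exact permutation p = 0.7).

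All 10 windows of *Piwil4* and all 5 of *Piwil1* had the higher mean in cKO, as did 10 of 12 at *Piwil2*, whereas at *Gtsf1* 4 of the 5 windows with a mean input of at least 1 had the lower mean. The other 2 *Gtsf1* windows are 95.1% and 84.9% masked as repeats and held at most 11 reads in any library. The value at 0 reads is lower in cKO replicates 3 and 4 than in the others, and its part in these 2 windows was not tested. The largest differences were 1.15 at *Piwil4* (window from 14705001, limma adjusted p = 0.454), 1.11 at *Piwil1* (from 128745001, 0.285) and 0.97 at *Piwil2* (from 70410001, 0.229), and none was called. The *Piwil4* window had 2.95, 4.66 and 1.57 in the cKO and 1.80, 1.91 and 2.01 in the WT libraries, and its difference was 0.35 without cKO replicate 3 and 1.90 without cKO replicate 4. Windows of 1 gene are neighbours in the same libraries and not replicates, and 5 of the *Piwil4* windows also overlap other annotated genes, 4 of them the antisense gene *Gm10706*. Over the whole set, 67 of 110 windows (60.9%) were higher in the cKO mean, close to the 59.2% of windows with a gene name. All cKO libraries were above all WT libraries in 17 windows and below them in 10, which is 15.5% and 9.09% of the set, against 14.8% and 6.64% of windows with a gene name and 9.88% and 9.95% of all windows.

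**Figure D4:**
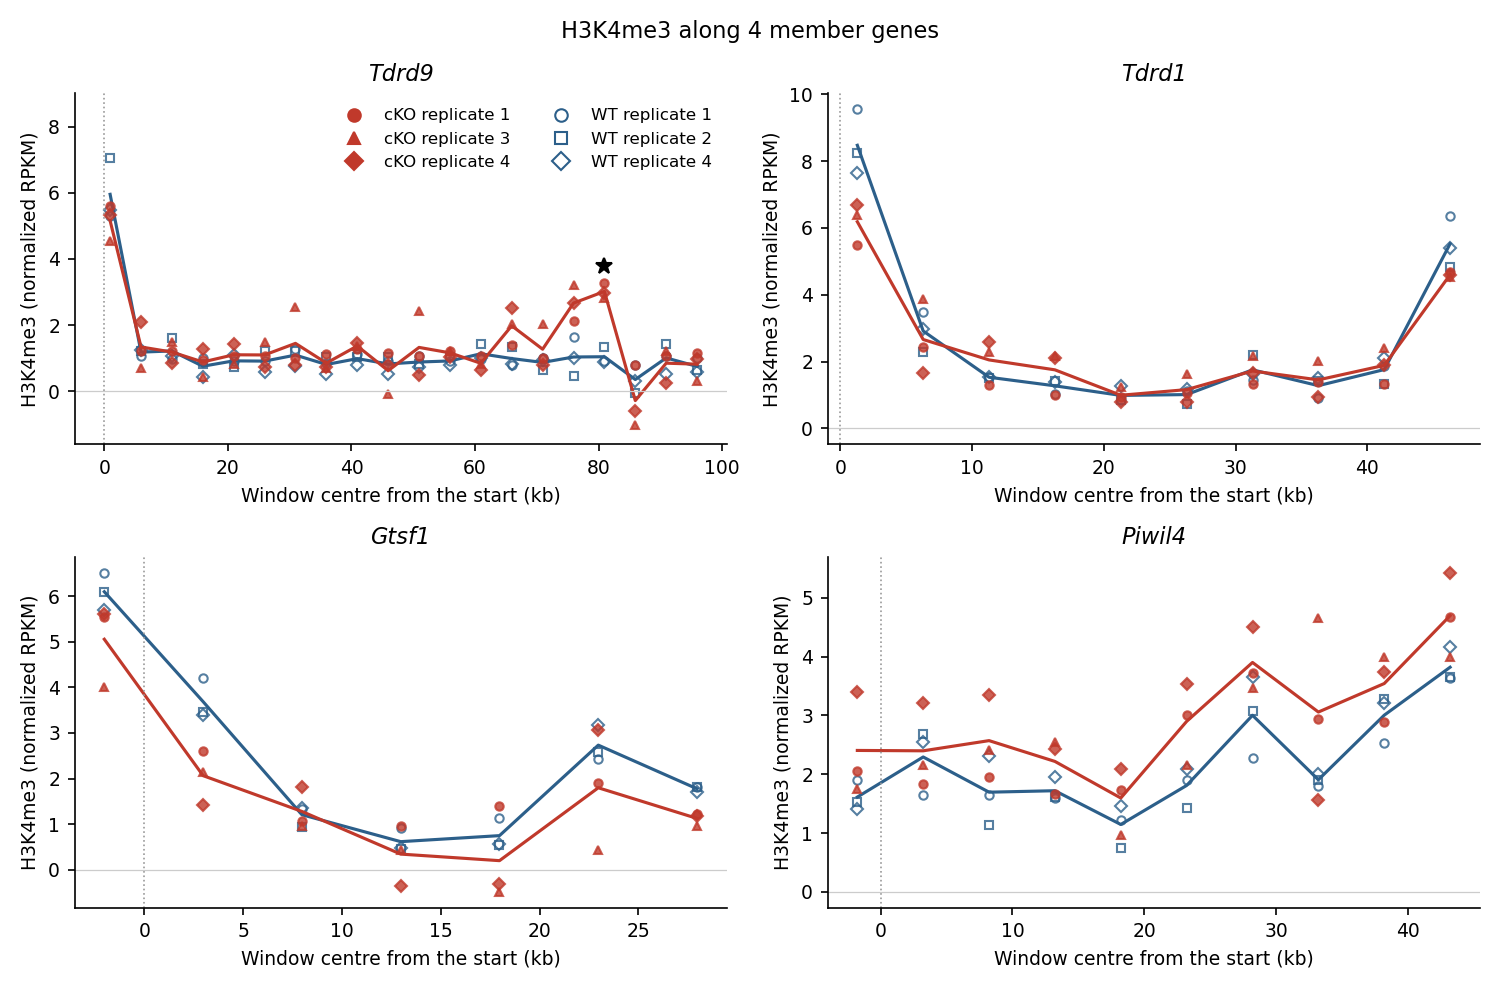
H3K4me3 in normalized RPKM (y axis) along *Tdrd9*, *Tdrd1*, *Gtsf1* and *Piwil4* against the distance of the window centre from the start in kb (x axis), with points for single libraries, lines for genotype means and a star for the gain window of *Tdrd9* (3.02 in cKO, 1.05 in WT). All 10 windows of *Piwil4* were higher in the cKO mean, and at *Gtsf1* 4 of the 5 windows with a mean input of at least 1 were lower.

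Of 42 further genes of the small RNA pathways, 26 for piRNAs and the nuage and 16 for siRNAs and miRNAs, none passed the test at its TSS window with limma, and 19 (45.2%) had an unadjusted p under 0.05, against 24.3% of all protein-coding TSS windows. In 20 of 42 (47.6%) the cKO mean was higher and the median difference was −0.10 normalized RPKM, against 54.6% and 0.10 over all protein-coding TSS windows. With edgeR on whole reads (TMM), where 0.728% of protein-coding TSS windows gained and 0.628% lost H3K4me3, 2 of these genes gained and 1 lost it. They were the FK506-binding protein gene *Fkbp6* (log2 fold change 1.18, adjusted p = 0.0217), whose window also holds the start of *Trim50*, the helicase gene *Mov10* (1.27, adjusted p = 0.0360) and *Gtsf1l*, a paralogue of *Gtsf1* (−1.55, adjusted p = 0.00655). *Gtsf1l* had 1.23, 3.08 and 1.66 in the cKO and 3.74, 4.54 and 4.95 in the WT libraries, with all cKO libraries below all WT libraries (difference −2.42, limma adjusted p = 0.0613).

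In piRNA biogenesis, the mitochondrial nuclease gene *Pld6* had 5.28, 5.06 and 5.95 in the cKO and 4.05, 3.56 and 3.63 in the WT libraries. All cKO libraries were above all WT libraries, with a difference of 1.68 that missed the threshold (limma adjusted p = 0.0654). The helicase gene *Mov10l1*, which binds piRNA precursors, had a difference of −1.45 (adjusted p = 0.245), in a window shared with the start of the pseudogene *Gm8702*. Of the trimming and 3′ end genes, *Pnldc1* and *Tdrkh* had differences of 0.03 (adjusted p = 0.979) and −0.05 (adjusted p = 0.965), and *Henmt1*, whose window is shared with *Gm9857*, had −0.91 (adjusted p = 0.218, all from limma). The *Tdrkh* window is shared with the starts of *1700040D17Rik* and *Gm42463*. The Tudor genes had differences of either sign, with *Tdrd12* at −1.63 (adjusted p = 0.102), *Tdrd5* at −1.05 (0.173), *Tdrd7* at 0.08 (0.947) and *Tdrd6* at 1.81 (0.217), by limma. The *Tdrd5* window is shared with the start of *4930518J20Rik*. *Spocd1* and *Tex15*, which link piRNAs to DNA methylation, differed by 1.84 (adjusted p = 0.111) and −0.16 (adjusted p = 0.844), and *Mybl1*, the transcription factor of pachytene piRNA genes, by 1.17 (adjusted p = 0.221, all from limma). The principal start of *Tex15* (chr8:33570544) lies far inside the gene, whose 5′ end is at 33516738. Its window holds 24 CpGs and had a WT mean of 1.02, so it need not show the promoter used in oocytes.

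Among the miRNA and siRNA genes, the microprocessor genes *Drosha* and *Dgcr8* differed by −1.08 (adjusted p = 0.291) and 0.34 (limma adjusted p = 0.620), the former in a window shared with the start of *6030458C11Rik*. *Ago2*, the slicing Argonaute, had 6.44, 3.74 and 5.76 in the cKO and 6.30, 6.09 and 5.34 in the WT libraries. The genotypes overlapped, with cKO replicate 3 lowest (difference −0.60, limma adjusted p = 0.633).

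**Figure D5:**
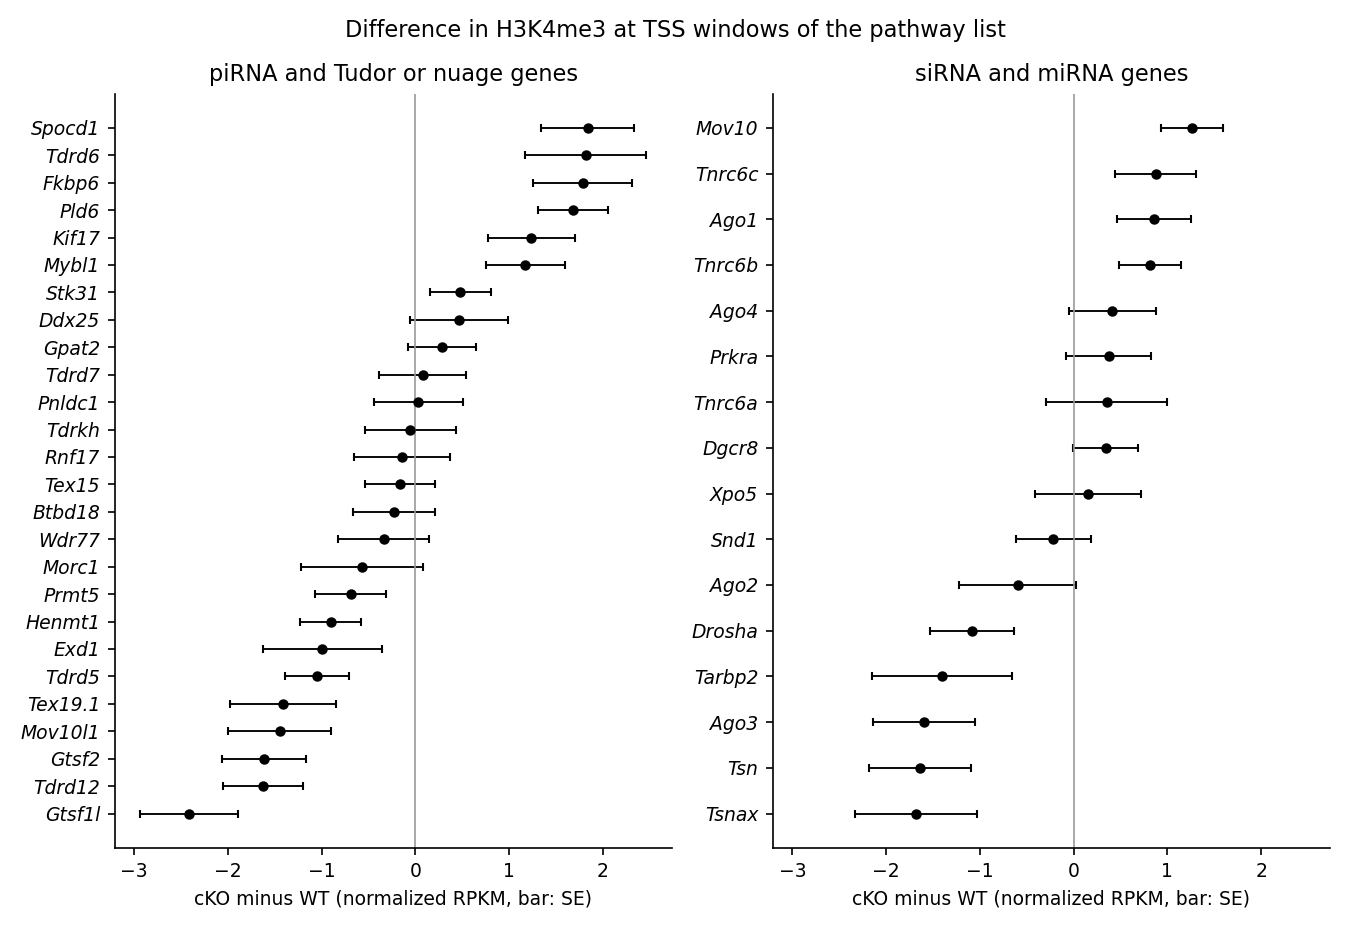
Difference in H3K4me3, cKO minus WT in normalized RPKM with its standard error from limma (x axis), at the TSS windows of 26 piRNA and nuage genes and 16 siRNA and miRNA genes, ordered by size (y axis). Differences ran from −2.42 at *Gtsf1l* to 1.84 at *Spocd1*, and none passed the adjusted threshold with limma.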

How the data were processed

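H3K4me3 was followed in 3 *Setd1b* cKO and 3 WT libraries, with 2 inputs per genotype. The authors had left out a further library of each genotype for poor enrichment. They judged this by a signal close to that of input and by how the library clustered with the others. The authors trimmed reads with Trim Galore 0.4.2, mapped them with Bowtie2 2.2.9 to GRCm38, filtered them by mapping quality, dropped windows of high input and counted reads over 5 kb in SeqMonk. As deposited, H3K4me3 is a score from the authors (enrichment-normalized RPKM, linear, which can be below 0), and input is a signal from the authors, reads per window scaled to library size. Whole reads were recovered from the equal steps of the values (100% whole within 0.1 of a step). Whether duplicate reads were removed from these libraries is not stated, and none could be removed here. The error of a count may therefore be larger than its counting error.

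Genotypes and replicate numbers came from the labels. The test over windows was limma 3.58.1 under R 4.3.3 (values as deposited, no trend, no block, Benjamini-Hochberg over 544879 windows, two-sided), and gene means with exact permutation tests. The tests were checked on simulated data. Alternatives were log2(value + 1) with negative values set to 0, an intensity trend, quantile normalization, a mean of at least 1, edgeR 4.0.16 (quasi-likelihood, at least 10 reads, TMM or RLE), a block for the replicate number, each library left out and other window definitions. Replicates are separate pools of oocytes. Members, lists and tests were chosen with earlier results of these data known. Named were all members with their TSS window, gene mean, called windows and largest difference, and a preset part of the pathway list. Other windows were named where a transcript starts, without naming all such windows, or beside a called window. Other tools were pandas 2.3.3, numpy 2.4.6 and matplotlib 3.10.9 under Python 3.11.15.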

Additional observations from a re-analysis of the deposited data

How the results depend on the processing

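Counts of called windows were small and moved with the setting. Against 1 gain and 1 loss window in the set, there were 0 and 0 on the log2(value + 1) scale and with quantile normalization, 2 and 2 with an intensity trend, 2 and 0 with edgeR (TMM or RLE), and, leaving out 1 library at a time, from 0 to 1 gain and from 0 to 3 loss windows. At the 10 TSS windows, against 0 and 0, an intensity trend gave 1 loss (*Tdrd1*) and leaving out 1 library gave from 0 to 1 loss (*Ddx4* without cKO replicate 1). In the pathway list, against 0 and 0, there were 2 gains and 1 loss with an intensity trend and with edgeR (TMM or RLE), and from 0 to 1 gain and from 0 to 2 losses without 1 library. Of protein-coding TSS windows, the trend called 2.08% as gains and 2.03% as losses, edgeR (TMM) 0.728% and 0.628%, and the fit without cKO replicate 1 3.65% and 2.19%. Over all windows, gains and losses numbered 3066 and 2473 in the main limma fit used here, 0 and 0 on the log2 scale, 1 and 0 with quantile normalization, 8540 and 10952 with the trend, 5369 and 6145 with edgeR (TMM), 9330 and 8649 without cKO replicate 1, 1275 and 486 without cKO replicate 3, and 0 and 1 in all without any other library. The study states more altered regions from LIMMA at the same threshold, a number that the main fit did not reproduce. The causes were not tested.

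The replicate block could use only replicates 1 and 4, since the other libraries have no partner and drop out of the difference, and the labels do not state that numbers pair libraries (deviations from the group means correlated by 0.319 for replicate 1 and 0.0190 for replicate 4). With the replicate block, which called 13678 gains (2.51%) and 19755 losses (3.63%) over all windows and 8.04% and 4.68% of protein-coding TSS windows, the set had 2 gain and 4 loss windows, its TSS windows 1 gain (*Dicer1*) and 2 losses (*Ddx4* and *Tdrd1*), the pathway list 2 gains and 3 losses, and the *Tdrd9* TSS difference was 0.0713, against −0.80 without it.

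Directions were reversed at the *Piwil1* TSS window, which ranged from −0.0477 (without cKO replicate 4) to 0.559 with 1 library left out and was −2.25 at the 5′ end of the gene, and at *Piwil2* with edgeR (log2 fold change −0.0615 with TMM and −0.0992 with RLE). The mean over all windows was reversed for *Dicer1* as a median (0.0301) and between −0.196 and 0.0167 with 1 library left out, for *Ddx4* (0.0757) and *Tdrd1* (0.0262) without the TSS window, for *Tdrd1* as a median (0.269), and for *Asz1* with quantile normalization (0.0306) and between −0.174 and 0.0375 with 1 library left out. With 1 library left out, the gene mean of *Tdrd1* lay between −0.416 (without cKO replicate 3) and −0.0323 (without cKO replicate 1), and that of *Ddx4* between −0.138 (without cKO replicate 3) and −0.0146 (without cKO replicate 4). The *Gtsf1* mean was −0.473 without cKO replicate 3, and the *Tdrd9* mean 0.169 without WT replicate 4. The difference in the *Piwil1* mean, 0.683 with all libraries, was 0.451 without cKO replicate 4 and 0.951 without cKO replicate 1. Of the 113 alternative values of gene means, 106 kept their direction. The median window held from 11 to 47 reads, so single windows carry large counting error in the shallower libraries.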
